A study of Homo sapiens with 5 samples.

Results

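The 8 genes described here are the gel-forming mucins MUC2, MUC5AC and MUC5B, the membrane mucins MUC1, MUC13, MUC16 and MUC20, and FCGBP, a mucus protein that is not itself a mucin. They were chosen by name, with their levels across the diets already known, and they make up 8 of the 26364 genes listed for every library. Their levels across the diets are therefore given as a description, and no test result is used as evidence about any of the 8. RNA was sequenced from tumours that grew from HT-29, an established human colon cancer cell line that makes both intestinal and gastric-type mucins. The cells were placed under the skin of the back of female NOD SCID mice, 5 weeks old, which lack T and B cells and so accept human cells.

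The mice ate 1 of 4 foods for 2 weeks, although the series text also speaks of a longer experimental period. One library came from normal food, 2 from food without methionine, 1 from food without tryptophan and niacin, and 1 from food without all of methionine, tryptophan and niacin, called the combined omission below. All tumours share the cell line and the immunodeficient host, so none of these diets was compared in an animal with a full immune system. Nothing in the labels states that the 2 libraries from methionine-free food are from different mice, so a p-value here reflects the spread between these samples alone, and that spread may be technical. Numbers 1 and 2 only name the libraries of that pair, in the order of deposition.

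Gel-forming mucins are secreted from goblet cells as giant disulfide-linked polymers that swell into mucus. MUC2 is the main mucin of the colon, while MUC5AC and MUC5B belong to the mucus of the stomach and airways and appear in some colon tumours. Membrane mucins stay on the apical surface, where their glycosylated outer part forms part of the glycocalyx and a short tail faces the cytoplasm. FCGBP is secreted with MUC2 and is a large protein of repeated von Willebrand factor D domains found in the same mucus. Mucins of both classes carry long stretches rich in serine and threonine, the residues to which O-linked sugars are attached.

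Those stretches, and the size of the transcripts that hold them, are what set these genes apart as objects of counting. The most frequent 30-base word read in frame from the longest GENCODE 29 transcript (GRCh38) of each gene is shown 5′ to 3′, with serine and threonine codons in capitals, because it shows how repetitive the counted sequence is.
MUC2: gtgACCccaACCccaACAcccACCggcACA
MUC5AC: AGCcctgttcccACCACCAGCACAACCTCT
MUC5B: ACCccagggACCACCtggatcctcACAgag
FCGBP: aaagacccgtgccacggcgtgACAtgccgg
MUC1: cacggtgtcACCTCGgccccggacACCagg
MUC13: ataattAGTACAcatAGTTCCTCCACAatt
MUC16: aacAGTctctatgtcaatggtttcACCcat
MUC20: ACCccgTCAcgggccTCAgagAGCAGCgcc

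The MUC2 word occurred 38 times in its transcript and had 5 serine or threonine codons among 10. The MUC1 word occurred 36 times, the MUC5AC word 14 times with 7 such codons, and the MUC20 word 11 times. In MUC5B and MUC16 the most frequent word occurred 6 times, and in FCGBP and MUC13 it occurred 2 times. Over the longest open reading frame, serine and threonine took 32% to 36% of codons in MUC2, MUC5AC, MUC5B, MUC16 and MUC20, 26.1% in MUC1, 24% in MUC13 and 11.9% in FCGBP. FCGBP had instead the highest share of cysteine codons, 8.59%, against 4.76% to 5.2% in the gel-forming mucins and 0.238% to 0.297% in MUC1, MUC16 and MUC20. MUC13, with 3.91%, was the membrane mucin with the most.

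Transcripts differed widely in length. The longest transcripts were 12667 bases for MUC2, 17448 for MUC5AC, 17911 for MUC5B and 9382 for FCGBP. Among the membrane mucins MUC16 had 43816 bases, whereas MUC1 had 4170, MUC13 2879 and MUC20 2842. A count of reads per gene rises with length, so levels are ranked between genes only per kilobase below. Sums and shares of counts further on are not corrected for length.

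Repeats also bear on how surely a read can be given to a gene. Of all 50-base words, 52.9% in FCGBP and 42.4% in MUC1 occurred more than once within the same transcript, against 21.4% in MUC2 and in MUC5AC, 29.2% in MUC5B and 1.07% in MUC16. In MUC20, 69.1% of the words were also found in MUC20P1 or MUC20-OT1, and neither name was among the genes listed in the files, so the counts of MUC20 are uncertain. MUC5B shared 2.3% of its words with MUC5B-AS1 or MUC5AC. For the other 6 genes at most 0.379% of words were shared with another gene.

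The 250 bases before the start of MUC2 and of MUC13 are shown because these genes gave the medians of their classes against normal food, described below. Both are from RefSeq on GRCh38.p14, at chr11:1074624-1074873 on the plus strand and chr3:124934752-124935001 on the minus strand. Capitals mark CATAAA, a word bound by the intestinal factor CDX2 among others, and CDX2 itself had 3.65 to 14.8 CPM.
MUC2: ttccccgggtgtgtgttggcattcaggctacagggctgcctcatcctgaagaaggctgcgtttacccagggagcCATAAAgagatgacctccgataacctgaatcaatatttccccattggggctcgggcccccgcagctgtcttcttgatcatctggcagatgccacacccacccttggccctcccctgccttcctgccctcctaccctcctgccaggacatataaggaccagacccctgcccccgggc
MUC13: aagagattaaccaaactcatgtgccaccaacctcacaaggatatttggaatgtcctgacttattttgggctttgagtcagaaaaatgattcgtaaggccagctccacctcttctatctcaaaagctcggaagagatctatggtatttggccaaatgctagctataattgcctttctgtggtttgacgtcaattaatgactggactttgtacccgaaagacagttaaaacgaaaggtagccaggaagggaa

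On both strands the windows were searched for CATAAA, for the hypoxia response element core ACGTG and for its variant GCGTG, none of which holds another. The MUC2 window held CATAAA once, 176 bases before the start, and neither of the others, and the MUC13 window held none of the 3. Over 35116 such windows of human genes, 9.64% held CATAAA, 18.5% ACGTG and 32.2% GCGTG. The windows of FCGBP, MUC1 and MUC16 held none of the 3 words. MUC5AC, MUC5B and MUC20 had no entry in the table of promoters.

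The libraries were shallow, with totals of 433930 to 1088084 counts. A single count was worth 0.927 to 2.31 CPM (the count scaled to the library's total over the kept genes times its TMM factor), and the floor of 3 counts lay at 2.78 to 6.94 CPM. Intervals and floors take in counting error and nothing else, because gene counts do not show PCR copies. All 11 markers of colon epithelium had counts, and their summed level was 12881 to 16148 CPM. Fibroblast markers summed to 15.8 to 18.3 CPM (2 of 6 with counts), endothelial markers to 0 to 3.19 CPM (1 of 5, with VWF, CDH5, KDR and TEK at 0 in every library) and adipocyte markers to 0 to 2.78 CPM (1 of 4). Leukocyte markers summed to 34.7 to 64.0 CPM, or 15 to 69 counts, with PTPRC and CSF1R at 0 in every library. Their sum was highest on normal food and lowest in the combined omission, and its part in the results was not tested. Skeletal muscle markers summed to 67.0 CPM, or 42 counts, in the tryptophan/niacin-free library and to at most 1.83 CPM elsewhere. All these markers are human genes, whereas the cells of the host are mouse cells, and how mouse reads were treated is not given. The sums therefore cannot show how much host tissue a tumour held. The sample titles of the normal and the combined omission libraries are short, while the other 3 share a longer pattern, so diet and any difference in handling that these titles mark cannot be told apart. In these bulk samples, fewer cells of a type and less RNA per cell cannot be told apart either.

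Methionine-free library 2 stood apart by transcript length. When the 9583 tested genes with a known length were put into 4 groups of nearly equal size, the longest group, whose median length was 7180 bases, lay at a median of -0.44 from normal food (log2) in that library, and the shortest, at 1804.5 bases, at 0.49. In methionine-free library 1 the same medians were -0.10 and 0.14, and in the other 2 diets they lay between -0.02 and -0.01. MUC2, MUC5AC, MUC5B, FCGBP and MUC16 all fell in the longest group. Levels are therefore given for each methionine-free library, and ratios to the pooled pair are followed by the ratio to library 1 alone.

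The gel-forming mucins and FCGBP were lowest in methionine-free library 2 and highest in the combined omission. MUC2 had 262 counts on normal food, 70 and 23 in methionine-free libraries 1 and 2, 65 in the tryptophan/niacin-free library and 153 in the combined omission. Scaled to library size, these were 243, 128, 37.2, 104 and 354 CPM. The normal and combined omission libraries were thus the highest pair, the other 3 lay below both, and the highest level was 9.51 times the lowest.

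MUC2 on normal food was 3.04 times the pooled level of both methionine-free libraries (ratio of counts scaled to library size, 95% exact conditional binomial interval 2.39 to 3.90). Against library 1 alone the ratio was 1.90 (1.45 to 2.51), and the combined omission was 4.44 times the pooled pair (3.41 to 5.80) and 2.77 times library 1 (2.07 to 3.73). The pair itself was uneven, at 82.6 ± 64.1 CPM (mean and SD, n = 2), library 2 being 3.44-fold lower than library 1 (2.12 to 5.77). Relative to normal food, the tryptophan/niacin-free library was 2.34-fold lower (1.78 to 3.12). The combined omission was 1.46 times normal food (1.19 to 1.79) and 3.41 times the tryptophan/niacin-free library (2.54 to 4.63).

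MUC5AC, the gastric-type mucin, was the gel-forming gene with the most counts. It had 340 counts on normal food, 144 and 56 in the methionine-free pair, 216 without tryptophan and niacin and 251 in the combined omission. These were 315, 263, 90.6, 345 and 581 CPM. Unlike MUC2, it was not lower in the tryptophan/niacin-free library, whose ratio to normal food was 1.09 (0.918 to 1.30).

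MUC5AC in the combined omission was 1.84 times normal food (1.56 to 2.18), 1.68 times the tryptophan/niacin-free library (1.40 to 2.03) and 3.38 times the pooled methionine-free pair (2.80 to 4.09), or 2.21 times library 1 alone (1.79 to 2.73). Normal food was 1.84 times the pooled pair (1.54 to 2.2) and 1.20 times library 1, with an interval of 0.983 to 1.47 that includes 1. Within that pair library 2 was 2.90-fold lower than library 1 (2.12 to 4.03). Library 1, at 263 CPM, was near the normal level of 315 CPM, so the low mean of the pair, 177 ± 122 CPM (SD, n = 2), came mostly from library 2.

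MUC5B, the airway-type mucin, was the scarcest of the 3. Its counts were 33 on normal food, 1 and 1 in the methionine-free pair, 4 without tryptophan and niacin and 15 in the combined omission. The corresponding levels were 30.6, 1.83, 1.62, 6.38 and 34.7 CPM, and the pair lay under the floor of 3 counts. At this depth nothing can be said of the spread within the pair.

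The ratio of normal food to the pooled methionine-free pair was 17.8 for MUC5B, with an interval of 4.56 to 153 because it rests on 2 counts. For the combined omission over the same pair it was 20.2 (4.70 to 182). Against library 1 alone these were 16.7 (2.80 to 681) and 19.0 (2.92 to 800), each resting on 1 count. The tryptophan/niacin-free library was 4.79-fold lower than normal food (1.70 to 18.6), and the combined omission was 1.13 times normal food (0.572 to 2.15), an interval that includes 1.

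FCGBP followed the order of MUC2. It had 337, 134, 63, 80 and 219 counts, in the order normal, methionine-free 1 and 2, tryptophan/niacin-free and combined omission, or 312, 245, 102, 128 and 507 CPM. Normal food and the combined omission were again the highest pair. In the combined omission it was 1.62 times normal food (1.36 to 1.93), 3.97 times the tryptophan/niacin-free library (3.06 to 5.19) and 3.00 times the pooled methionine-free pair (2.46 to 3.65), or 2.07 times library 1 alone (1.66 to 2.59).

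FCGBP was 2.45-fold lower in the tryptophan/niacin-free library than on normal food (1.91 to 3.16). Normal food was 1.85 times the pooled methionine-free pair (1.55 to 2.21) and 1.28 times library 1 alone (1.04 to 1.57). In that pair library 2 was 2.40-fold lower than library 1 (1.77 to 3.29). The pair had a mean of 173 ± 101 CPM (SD, n = 2).

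**Figure D1:**
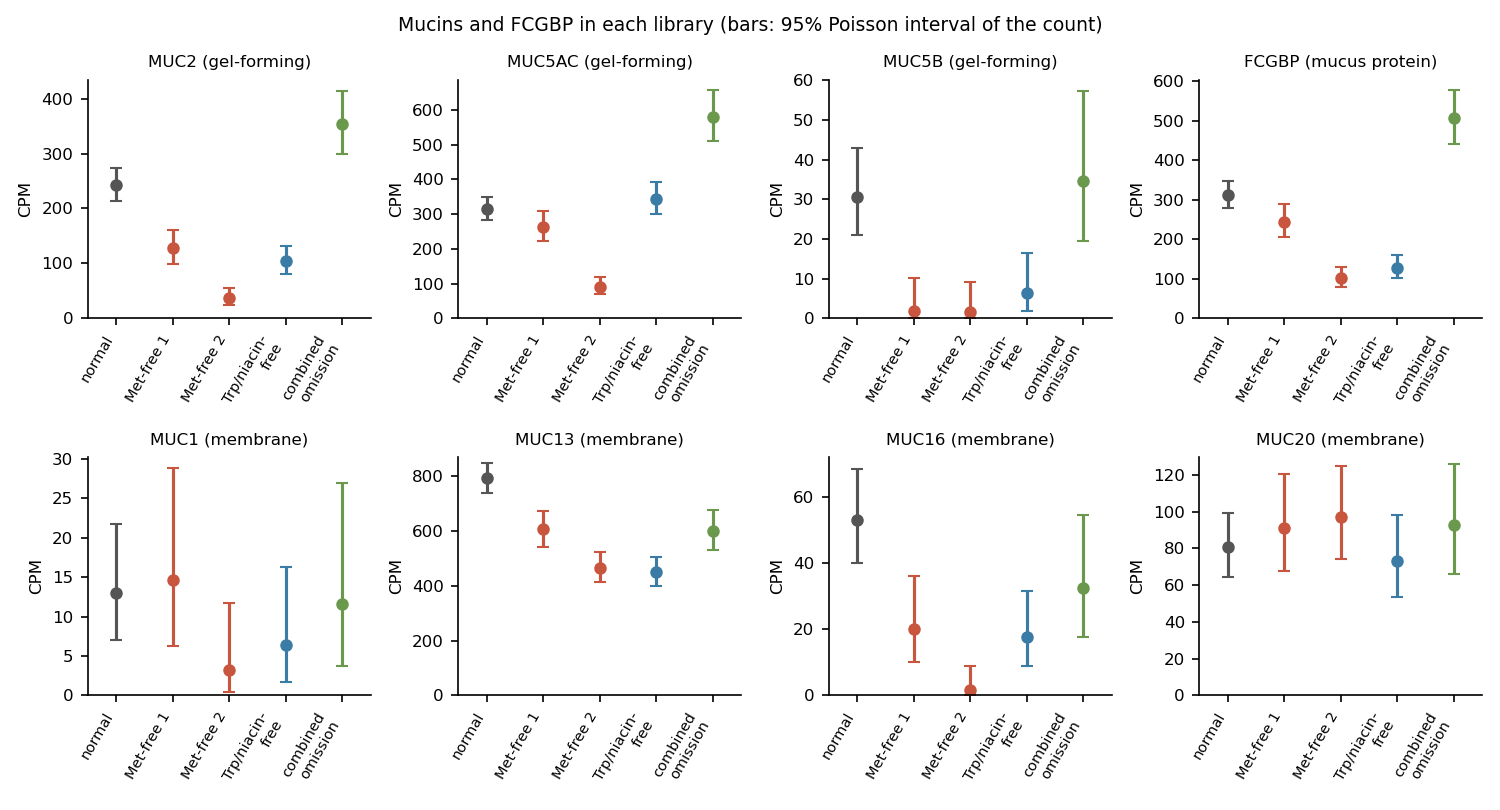
Level of each of the 8 genes (vertical axis, CPM, a scale of its own in each panel) in each of the 5 libraries (horizontal axis), with bars for the 95% Poisson interval of the count. For MUC2, MUC5B and FCGBP the normal and combined omission libraries are the highest pair. FCGBP in methionine-free library 1 (245 CPM) is nearest to its normal level (312 CPM). MUC5AC is lowest in methionine-free library 2 (90.6 CPM), and MUC20 stays between 73.4 and 97.1 CPM.

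Of the membrane mucins, MUC16 had normal food and the combined omission as its highest pair, though on few counts, and MUC1, MUC13 and MUC20 did not. MUC13, a membrane mucin of the intestinal brush border, had 853, 331, 288, 282 and 259 counts in the same order of libraries, the most of any of the 8 genes. Its levels were 791, 605, 466, 450 and 599 CPM. It was highest on normal food, and the 4 libraries from deficient foods lay within 450 to 605 CPM.

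MUC13 on normal food was 1.49 times the pooled methionine-free pair (1.34 to 1.65) and 1.31 times library 1 alone (1.15 to 1.49), and the tryptophan/niacin-free library was 1.76-fold lower than normal (1.53 to 2.02). The combined omission was at 0.758 of normal food (0.657 to 0.872) and at 1.33 of the tryptophan/niacin-free library (1.12 to 1.58). Within the methionine-free pair (535 ± 98.1 CPM, SD, n = 2), library 2 was 1.30-fold lower than library 1 (1.10 to 1.53). The direction of the combined omission against the pair turned with the library left out: the log2 difference was 0.17 against both and -0.01 against library 1 alone.

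MUC16, the very long membrane mucin known as the source of the CA125 antigen, had 57 counts on normal food, 11 and 1 in the methionine-free pair, 11 without tryptophan and niacin and 14 in the combined omission. These were 52.8, 20.1, 1.62, 17.6 and 32.4 CPM. Normal food was highest and the combined omission next, and methionine-free library 2 was under the floor of 3 counts. The combined omission was 1.61 times methionine-free library 1 (0.680 to 3.92) and 1.84 times the tryptophan/niacin-free library (0.778 to 4.49). Both intervals include 1, so its place as second is uncertain.

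The tryptophan/niacin-free library was 3.01-fold lower in MUC16 than normal food (1.56 to 6.37), and normal food was 5.13 times the pooled methionine-free pair (2.72 to 10.5), or 2.63 times library 1 alone (1.36 to 5.56). In the combined omission it was at 0.613 of normal food, with an interval of 0.315 to 1.11 that includes 1. Library 2 of the pair rests on 1 count, a 12.4-fold lower level than library 1 with an interval of 1.81 to 535.

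MUC20, a membrane mucin known to bind the hepatocyte growth factor receptor MET, was the steadiest gene of the set. Its expected counts were 87, 50.5, 60, 45.5 and 40, and its levels after rounding 80.6, 91.4, 97.1, 73.4 and 92.5 CPM. It was highest in methionine-free library 2, where 6 of the 8 genes were lowest. The ratio of normal food to the pooled pair was 0.854 (0.637 to 1.14), that of the combined omission to normal food 1.15 (0.769 to 1.69), and that of the tryptophan/niacin-free library to normal food 0.910 (0.623 to 1.32). All 3 intervals include 1, which does not show that the levels are alike.

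MUC1, the widely expressed epithelial membrane mucin, had only 14, 8, 2, 4 and 5 counts, or 13.0, 14.6, 3.24, 6.38 and 11.6 CPM. It was the 1 gene of the 8 that the filter on low counts removed. Normal food was 1.51 times the pooled methionine-free pair with an interval of 0.625 to 3.81, so no difference was detectable at this depth.

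Per kilobase of its longest transcript, MUC13 had the highest mean level over the 5 libraries, 202 CPM per kilobase (156 to 275), and it was above every other gene of the set in 5 of 5 libraries. MUC20 (30.6, range 25.8 to 34.2) and FCGBP (27.6, range 10.9 to 54.0) came next, and they changed places between libraries, MUC20 being above FCGBP in 3 of 5. MUC5AC followed at 18.3 (5.19 to 33.3) and MUC2 at 13.7 (2.94 to 27.9), MUC5AC being the higher in 4 of 5. MUC1 at 2.34 (0.776 to 3.51) was above MUC5B in 5 of 5 libraries. MUC5B at 0.839 (0.0903 to 1.94) and MUC16 at 0.568 (0.0369 to 1.21) were lowest, and their order held in 3 of 5 libraries.

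The gel-forming and membrane classes were then set side by side as log2 differences in CPM over their tested genes, 3 in each. Without methionine, the gel-forming median against normal food was -1.76 and the membrane median -0.57. Without tryptophan and niacin they were -1.20 and -0.81, and in the combined omission 0.54 and -0.40. Each gel-forming median here was the value of MUC2 and each membrane median that of MUC13. The classes overlapped. Without methionine, gel-forming values ran from -2.82 to -1.01 and membrane values from -2.43 (MUC16) to 0.22. Without tryptophan and niacin they ran from -1.84 to 0.13 and from -1.44 to -0.13. In the combined omission they ran from 0.17 to 0.88 and from -0.66 to 0.19. The median over all 10005 genes was -0.01 in each of these comparisons. The gel-forming median was above 0 in the combined omission and below 0 in the other 2 comparisons, while the membrane median was below 0 in all 3. These comparisons share the normal-food library.

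Against the methionine-free pair, the combined omission had a gel-forming median of 2.30 and a membrane median of 0.17, and the tryptophan/niacin-free library had 0.99 and -0.24. The membrane values ran from -0.02 to 1.77 and from -0.35 to 0.99, with MUC16 the highest in both. The gel-forming median of 0.99 was the value of MUC5B, which had 4 counts or fewer in the libraries compared. Without methionine-free library 2 the gel-forming medians became 1.45 and 0.39, and that of methionine-free against normal food became -0.91. Without library 1 they were 3.02, 1.41 and -2.61. The sign of the gel-forming median held in each case, and its size moved by more than 1.5 times with library 2 left out.

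Summed over the class, gel-forming mucins had 589 CPM on normal food, 393 and 129 in the methionine-free pair, 455 without tryptophan and niacin and 969 in the combined omission. The 4 membrane mucins had 937, 731, 568, 547 and 736 CPM. Gel-forming counts thus exceeded membrane counts only in the combined omission among these 5 libraries. Per kilobase the order there was the reverse. MUC13 alone had 208 CPM per kilobase, against 33.3 for MUC5AC, 27.9 for MUC2 and 1.94 for MUC5B. The sums therefore do not rank the classes by level.

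The share of gel-forming counts among the counts of both classes was 38.6% on normal food (95% exact Clopper-Pearson interval 36.2 to 41.0) and 56.9% in the combined omission (53.2 to 60.5). It was 35.0% (31.2 to 38.9) and 18.6% (15.0 to 22.6) in methionine-free libraries 1 and 2, and 45.4% (41.4 to 49.4) without tryptophan and niacin. Library 1 and normal food had overlapping intervals, while library 2 lay below both. The gel-forming genes are in the longest transcript group, whose median difference from normal food in library 2 was -0.44. MUC13 and MUC20 are in a shorter group, whose median there was 0.11. These shares are not corrected for length, and its part in them was not tested.

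Shares between pairs of genes within a library showed where the gel-forming set did not move as 1 block. MUC2 made up 43.5% (39.5 to 47.6) of the summed counts of MUC2 and MUC5AC on normal food and 23.1% (18.3 to 28.5) without tryptophan and niacin. In the methionine-free pair the share was 32.7% (26.5 to 39.4) and 29.1% (19.4 to 40.4), and in the combined omission 37.9% (33.1 to 42.8). MUC2 had the fewer counts of the pair in all 5 libraries. Per kilobase, however, it was the higher on normal food, at 19.2 against 18.1 CPM.

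FCGBP made up 49.8% (45.9 to 53.6) of the summed counts of FCGBP and MUC5AC on normal food, 48.2% (42.2 to 54.2) and 52.9% (43.6 to 62.2) in the methionine-free pair and 46.6% (42.0 to 51.2) in the combined omission. The tryptophan/niacin-free library stood below these, at 27.0% (22.1 to 32.5). In that library MUC2 and FCGBP were both low against MUC5AC, and their share of each other, 44.8% MUC2, was close to the 43.7% on normal food. That is also the library with 42 counts of skeletal muscle markers, whose part in the result was not tested.

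**Figure D2:**
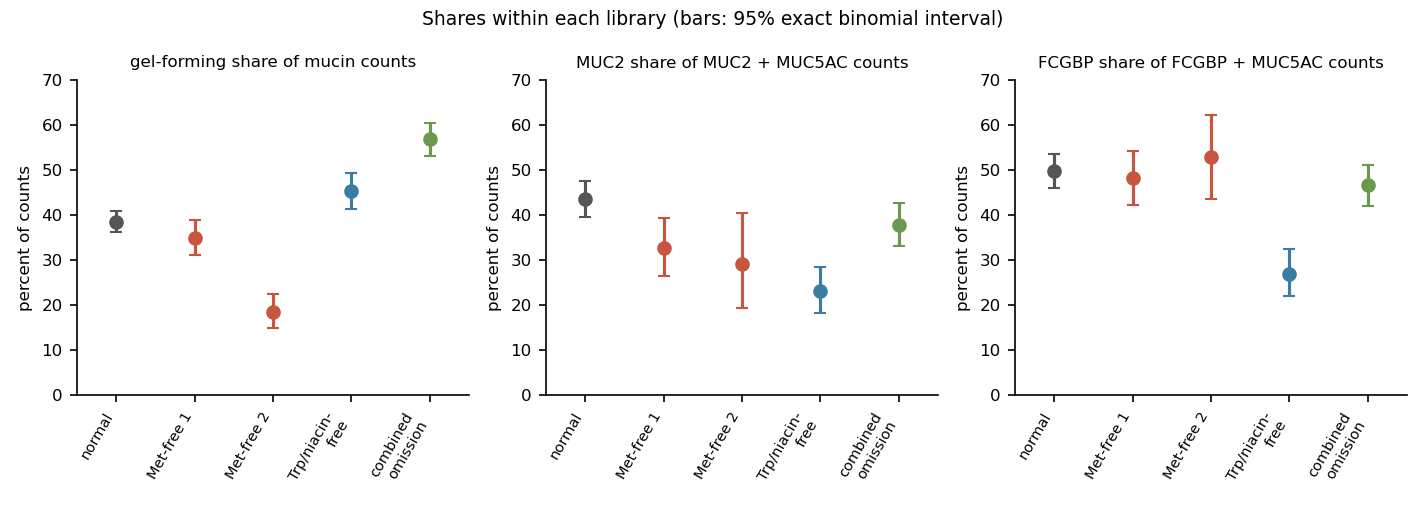
Share of counts (vertical axis, percent) in each of the 5 libraries (horizontal axis) for gel-forming among gel-forming and membrane mucins, MUC2 among MUC2 and MUC5AC, and FCGBP among FCGBP and MUC5AC, with bars for the 95% exact binomial interval. The gel-forming share runs from 18.6% in methionine-free library 2 to 56.9% in the combined omission, and the FCGBP share is at 27.0% without tryptophan and niacin against 46.6% to 52.9% elsewhere. Shares are not corrected for transcript length.

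In the comparisons with the methionine-free pair, edgeR's quasi-likelihood test was fitted to all 10005 genes that passed the filter on low counts, among them 7 of the 8 members. In methionine-free against normal food it called 0.23% of all genes lower and 0% higher, and 2 of the 7 members, MUC5B and MUC16. In the combined omission against methionine-free it called 0.03% higher and 0% lower, and 2 members, MUC2 and MUC5B. In tryptophan/niacin-free against methionine-free it called 0% of genes and 0 members, with 491 genes at an unadjusted p under 0.05, while DESeq2 also called 0 genes, with 31 at that level. The members were chosen with these contrasts known, so the counts are no evidence about them.

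Between single libraries no test was made, since neither side has a replicate of its own, and a gene was counted as different when its scaled log2 CPM differed by at least 2-fold and the counting interval excluded 1. Without tryptophan and niacin 2.51% of genes were lower than on normal food by that rule, and 4 of the 7 members were, MUC2, MUC5B, FCGBP and MUC16. The combined omission was higher than the tryptophan/niacin-free library in 2.31% of genes and in 3 members, MUC2, MUC5B and FCGBP. Between the combined omission and normal food it applied to 2.02% of genes and to 0 members. Between the methionine-free libraries it marked 4.17% of genes as lower in library 2, with 4 members, MUC2, MUC5AC, FCGBP and MUC16, so the libraries of 1 diet differed by this rule in as many members as the tryptophan/niacin-free and normal libraries did.

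The same rule was applied to each methionine-free library by itself. Library 1 was lower than normal food in 2.05% of genes and in 2 members, MUC5B and MUC16, and library 2 in 8.75% and in 5, which added MUC2, MUC5AC and FCGBP. The combined omission was higher than library 1 in 2.21% of genes and in 4 members, MUC2, MUC5AC, MUC5B and FCGBP, and higher than library 2 in 8.76% and in 5, which added MUC16. The tryptophan/niacin-free library was higher than library 1 in 1.31% of genes and in 0 members, and higher than library 2 in 6.11% and in 3 members, MUC2, MUC5AC and MUC16. More members and more genes of all kinds were thus marked wherever library 2 entered.

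Because most of these genes are long, each was also set against the nearest of 20 length bins. The longest bin held MUC2, MUC5AC, MUC5B and MUC16 among 480 genes of 9593 to 91667 bases. Its median length was 11384.5 bases, so most of its genes are shorter than these 4, and the trend with length may not be fully taken out. In methionine-free library 2, the difference from normal food minus the bin median was -1.86 (log2) for MUC2, -1.01 for MUC5AC, -2.10 for MUC5B, -1.0 for FCGBP and -2.84 for MUC16. In library 1 the same quantity was -0.74, -0.09, -2.62, -0.21 and -1.11.

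All 5 long genes thus lay below their bin in both libraries, by least in MUC5AC and FCGBP of library 1. The short MUC13 had -0.90 and -0.42 in libraries 2 and 1, and the short MUC20 had 0.11 and 0.13. Of the other long mucins in the longest bin, MUC12 had -1.69 and -0.98 and MUC17 -1.64 and -0.40, while MUC3A lay above the bin, at 0.51 and 0.30.

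After a correction for length in every library, the gel-forming median was -1.26 in methionine-free against normal food, 1.82 in the combined omission against methionine-free and -0.83 in methionine-free library 2 against library 1. In methionine-free against normal food the membrane median was then -0.61, and in the combined omission against methionine-free 0.23. The 2 classes thus lay closer together in both than without the correction. With that correction edgeR called 0 of the 7 members in each of the 3 tested comparisons, and DESeq2 also called 0 of them in each. The part of transcript length in these differences beyond that correction was not tested.

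**Figure D3:**
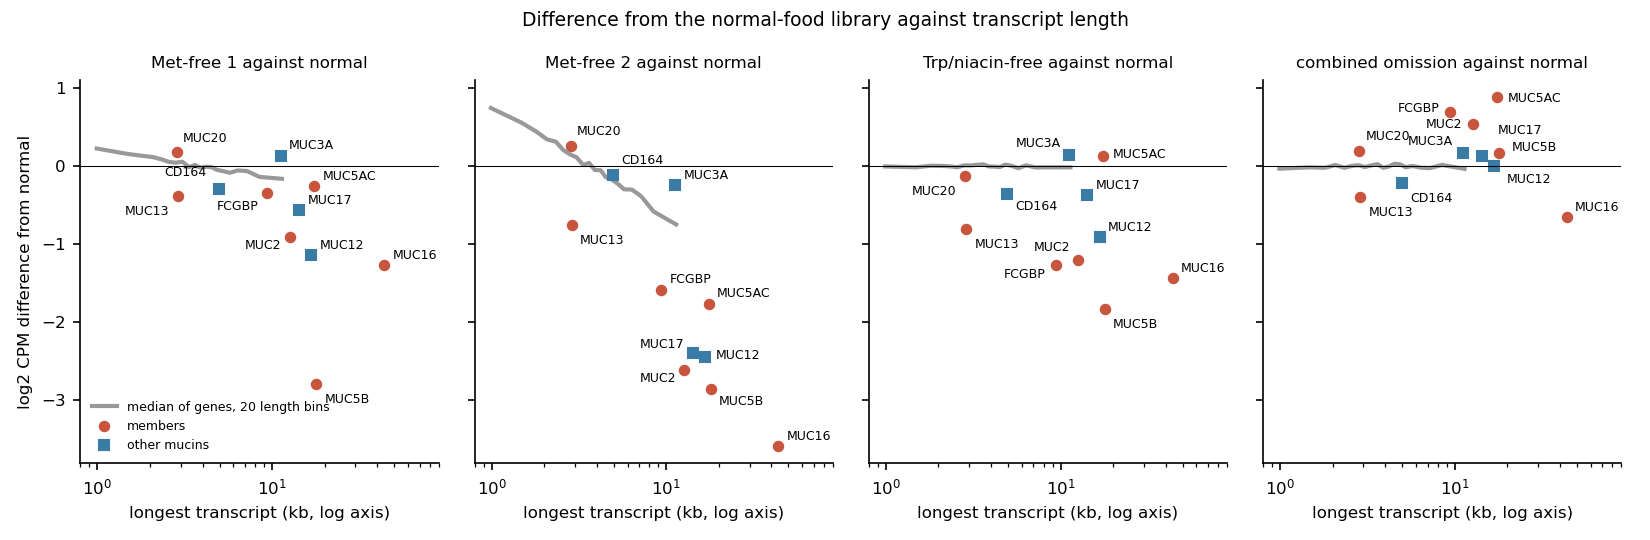
Log2 CPM difference from the normal-food library (vertical axis) against the longest transcript in kilobases (horizontal log axis) in 4 panels, 1 for each other library, with the median of all genes in 20 length bins as a grey line. The line falls with length in methionine-free library 2 (0.74 to -0.75) and less so in library 1 (0.22 to -0.17), and the long mucins other than MUC3A lie below it in library 2. It is flat in the other 2 panels.

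Mucins outside the set gave a check on length within the family. Of 14 other mucins and mucin-like genes, 7 were at 0 in every library (MUC7, MUC15, MUC19, MUC21, MUC22, MUCL1 and EMCN), and 4 passed the filter. The membrane mucin MUC12, with a transcript of 16737 bases, had 92.7 CPM on normal food, 40.2 and 14.6 in the methionine-free pair, 47.9 without tryptophan and niacin and 92.5 in the combined omission. Like MUC2 it was highest in the normal and combined omission libraries.

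MUC12 was the 1 of these 4 genes that changed in methionine-free against normal food by edgeR (log2 fold change -1.78, SE 0.438, adjusted p = 0.027). DESeq2 gave -1.77 with an adjusted p = 1.00, and the length correction gave -1.27 with an adjusted p = 0.282, so both ended the call. With total-count scaling the adjusted p was 0.023 and with no filter 0.0383.

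MUC17, a brush border mucin with a transcript of 14247 bases, had 123, 82.2, 21.0, 94.2 and 134 CPM, with a fold change of -1.28 that did not pass (edgeR adjusted p = 0.261). MUC3A, at 11226 bases also long and uncertain in its counts for its near-identical copy MUC3B, had 148, 163, 125, 163 and 167 CPM and a fold change of -0.05 (edgeR adjusted p = 0.992). CD164, a sialomucin of the endosome and cell surface, had 452, 369, 417, 353 and 386 CPM. Long transcripts of the family therefore included both MUC12 and MUC17, with library 2 lowest by a wide margin, and MUC3A, with library 2 lowest by a narrow one.

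The proteins that work with mucins were taken from 5 lists: mucus partner proteins, O-glycosylation enzymes, goblet and intestinal transcription factors, granule secretion, and sheddases and partners of membrane mucins. Of their 75 tested genes, edgeR called 0 in each of the 3 tested comparisons, as did DESeq2. At an unadjusted edgeR p under 0.05 there were 4 lower and 2 higher in methionine-free against normal food. In the combined omission against methionine-free there were 0 lower and 1 higher, and in tryptophan/niacin-free against methionine-free 5 lower and 2 higher. In the same order, 521, 295 and 234 of all 10005 genes were lower at that level, and 247, 462 and 257 were higher. Among all genes edgeR called 23, 3 and 0, so 0 calls among 75 genes say nothing particular about these lists.

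Among mucus partner proteins, 4 of 15 were tested. AGR2, a disulfide isomerase of the endoplasmic reticulum needed for MUC2 assembly, had 791, 937, 1325, 562 and 791 CPM, in the order normal, methionine-free 1 and 2, tryptophan/niacin-free and combined omission. REG4, a secreted lectin, had 171, 228, 293, 84.6 and 229 CPM. Both were highest in methionine-free library 2, where MUC2, MUC5AC, MUC5B and FCGBP were lowest.

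In methionine-free against normal food the list had a median log2 fold change of 0.65 over the 4 tested partner proteins, against 0.00 over all genes. All 4 are in the group of shortest transcripts, however, whose own median difference from normal food was 0.14 and 0.49 in methionine-free libraries 1 and 2. All 4 of its values were above 0, and none passed (edgeR adjusted p of AGR2 0.884 and of REG4 0.804). In the tryptophan/niacin-free library REG4 was low together with MUC2 and FCGBP. The combined omission was 2.71 times that library in REG4 (1.92 to 3.85), the only partner protein beyond the size rule there. TFF3 was beyond it between the methionine-free libraries, at 42.0 CPM in library 1 and 95.5 CPM in library 2.

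The O-glycosylation enzymes build the sugar chains of mucins, and 23 of 34 were tested, with a median of 0.16 in methionine-free against normal food. ST3GAL1, a sialyltransferase that caps these chains, had 740, 835, 625, 828 and 1069 CPM. GCNT3, which makes branched core structures, had 265, 353, 429, 290 and 384 CPM. GALNT7 and ST6GALNAC1, which add N-acetylgalactosamine and sialic acid, were lower by the size rule without tryptophan and niacin than on normal food. GALNT7 had 103, 73.1, 66.3, 43.1 and 78.7 CPM, and ST6GALNAC1 had 29.7, 16.4, 21.0, 12.8 and 11.6 CPM. Both were thus highest on normal food, and ST6GALNAC1 was lowest in the combined omission, on 5 counts. The chaperone C1GALT1C1 had 16.7, 51.2, 59.9, 20.7 and 37.0 CPM. It was higher by the size rule in the combined omission than on normal food, on 16 against 18 counts. Both methionine-free libraries were higher still. Between the methionine-free libraries, GALNT10, B3GALT5 and ST3GAL2 were lower in library 2 by the same rule.

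Of the transcription factors, 13 of 17 were tested, and their median was 0.14 in methionine-free against normal food. XBP1, a factor of the secretory pathway, had 233, 292, 354, 222 and 250 CPM, and CREB3L1, a factor of the endoplasmic reticulum and Golgi, had 209, 247, 191, 115 and 201 CPM. SPDEF, the goblet cell factor, had 46.3, 51.2, 43.7, 31.9 and 67.1 CPM, and the combined omission was 2.1 times the tryptophan/niacin-free library (1.15 to 3.92). ELF3 had 489, 234, 259, 227 and 356 CPM, and FOXA2 had 40.8, 20.1, 16.2, 12.8 and 32.4 CPM. Both were lower by the size rule without tryptophan and niacin than on normal food. In both genes the methionine-free libraries were also below normal food. ATOH1, which specifies secretory cells, had at most 7 counts in any library and was not tested.

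For granule secretion, 17 of 20 genes were tested, with a median of -0.14 in methionine-free against normal food. VAMP8, a vesicle fusion protein of mucin granules, had 60.3, 73.1, 134, 67.0 and 64.8 CPM, and STX3, an apical syntaxin, had 197, 150, 194, 174 and 190 CPM. ERN2, the endoplasmic reticulum stress sensor of mucus-making cells, had 48.2, 32.9, 35.6, 23.9 and 69.4 CPM. It was 2.90 times as high in the combined omission as without tryptophan and niacin (1.51 to 5.80), and its 2 highest libraries were the combined omission and normal food, as for MUC2. Between the methionine-free libraries, RAB3D and RAB27B were lower in library 2 by the size rule and SYTL1 was higher.

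Among sheddases and partners of membrane mucins, 18 of 19 were tested, with a median of -0.18 in methionine-free against normal food. EZR, which links membrane mucins to actin, had 651, 588, 521, 737 and 625 CPM, and its relative MSN had 449, 523, 401, 525 and 474 CPM. No gene of this list passed the size rule in any of the 3 pairs of diets with single libraries, or between the methionine-free libraries.

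**Figure D4:**
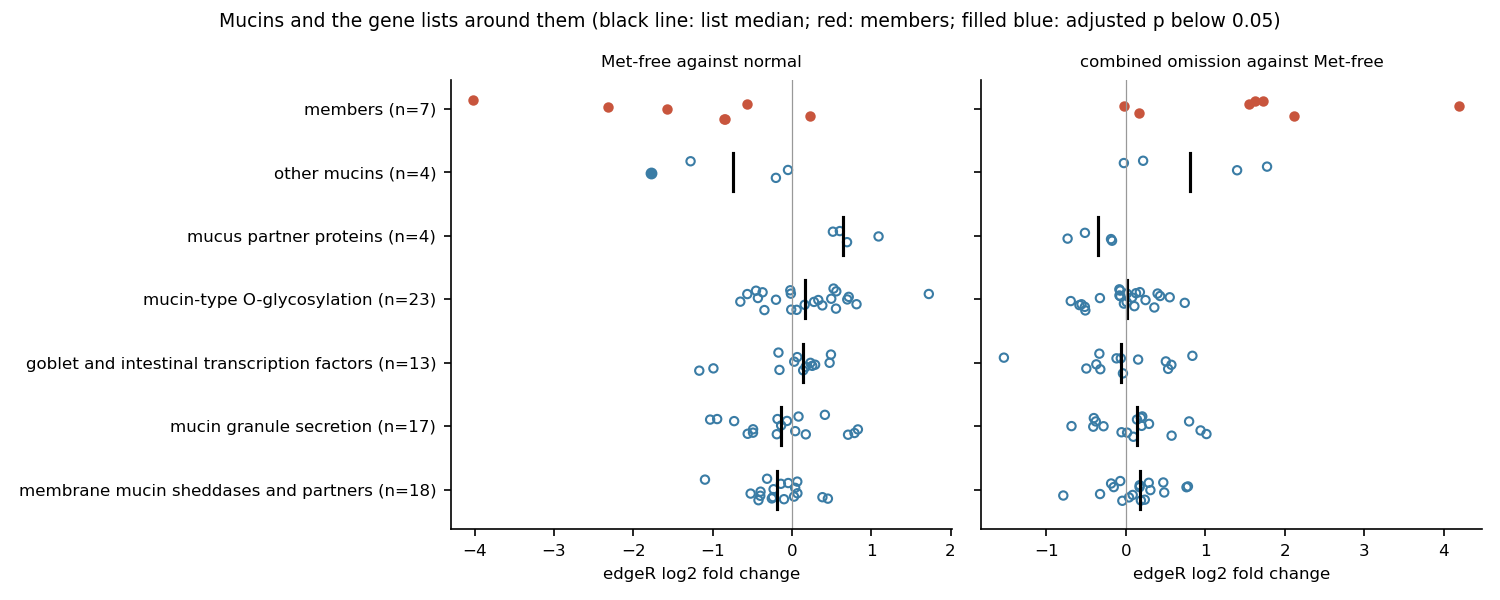
EdgeR log2 fold change (horizontal axis) of the tested mucins and FCGBP, the other mucins and 5 lists of mucin-related genes (rows, n tested genes each) in methionine-free against normal food and in the combined omission against methionine-free. Each point is a gene and black lines are list medians. The mucus partner proteins have a median of 0.65 in the left panel, and MUC12 at -1.78 is the 1 gene outside the top row with an adjusted p below 0.05, calls in the top row not being marked.

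The genes whose profiles over the 5 libraries were most like that of MUC5AC were found by root mean square distance in log2 CPM, each profile centred on its own mean, among 4727 genes with at least 20 counts in every library. They were HSPG2 (0.197), NPIPB3 (0.215), SRRM2 (0.229), LAMA5 (0.236) and RNF213 (0.242), against a median distance of 0.877. HSPG2, for example, had 781, 568, 207, 873 and 999 CPM. Of the 5, 4 were in the group of longest transcripts, and NPIPB3 has near-identical copies, so its counts are uncertain.

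For MUC13 the nearest profiles were those of PDE10A (0.0413), TMEM65 (0.0561), GRB7 (0.0709), SPNS2 (0.0738) and DAPK1 (0.0752), against a median of 0.379. PDE10A had 82.5, 63.9, 46.9, 44.7 and 57.8 CPM. Among the members with at least 20 counts in every library, the closest pair of profiles was MUC13 and MUC20 (0.33), followed by MUC2 with FCGBP (0.41) and MUC2 with MUC5AC (0.45). The first is little below the median distance of MUC13 to all genes compared, 0.379. The last is well below that of MUC5AC, 0.877, and no such median was taken for MUC2. Distances to MUC1, MUC5B and MUC16 are not given, since these genes had 4 or fewer counts in some libraries and so fell short of that minimum.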

How the data were processed

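A total of 5 tumour RNA samples were sequenced after preparation with a stranded kit for mRNA, per the labels' protocols. For each symbol the authors deposited expected counts, which are estimates, and 15.2% to 17.6% of the values above 0 in each library carried decimals. Per the submitters' processing notes, Subread 2.0.0 and featureCounts, SAMtools 0.1.18, TopHat2 2.1.1 and Bowtie2 2.2.8 were used with hg19. How strand, reads with several positions and mouse reads were treated, and which annotation was counted, is not given in the sources used here, so genes that overlap or have near-identical copies are uncertain.

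The 8 genes and all lists were chosen with earlier results of these data known. Expected counts were rounded to whole numbers. CPM scales the count to the library's total over the kept genes times its TMM factor (0.926 to 1.04), and log2 differences have a prior count of 2. In R 4.3.3, edgeR 4.0.16 fitted 1 mean per diet to all 5 libraries (quasi-likelihood F-test, filterByExpr, 10005 genes kept and 16359 removed, p-values adjusted by Benjamini-Hochberg across the tested genes, threshold 0.05). Its 1 residual degree of freedom comes from the methionine-free libraries, and it assumes that each single library varies like that pair (biological coefficient of variation 0.207). DESeq2 1.42.0, total-count scaling, no filter and a length correction (a spline with 4 degrees of freedom, fitted per library) were alternatives, and the edgeR fit was tested on simulated data. Leaving out 1 methionine-free library in the counts of called genes, with the size rule in place of the test, was chosen after seeing the data. The methionine-free pair differed beyond sampling noise (chi-square per degree of freedom 4.06 over 8862 genes) and was counted as 2 samples.

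Named from each list were genes called in a tested comparison and the 2 genes with the highest CPM per kilobase. Other genes were named after their values were seen. These were genes beyond the size rule between diets with single libraries or between the methionine-free libraries, and MUC17, SPDEF, ERN2 and ATOH1. Transcript lengths and words came from GENCODE 29 on GRCh38 by identical symbol (23774 of 26364 symbols, 90.2%), and promoters from RefSeq on GRCh38.p14. No coordinates of the files' build were used.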

Additional observations from a re-analysis of the deposited data

Results flagged for a closer look

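For 6 of the 8 genes, food without methionine went with a lower level where tryptophan and niacin were present (both methionine-free libraries below normal food) and with a higher level where they were absent (the combined omission above the tryptophan/niacin-free library). Of all 10005 genes tested, 21.4% showed the same signs, and the 6 genes were chosen with these levels known, so nothing is read from their number. These 2 differences were not tested against each other. The higher side of both is a library with a short sample title, normal food or the combined omission. Diet and any handling that these titles mark therefore cannot be told apart here. Some of the signs rest on ratios whose counting interval includes 1, among them MUC5AC in methionine-free library 1 against normal food (0.835, interval 0.682 to 1.02) and MUC16 in the combined omission against the tryptophan/niacin-free library (1.84, interval 0.778 to 4.49). All values are in CPM, in the order normal food, methionine-free libraries 1 and 2, tryptophan/niacin-free and combined omission. MUC2 had 243, 128, 37.2, 104 and 354. MUC5AC had 315, 263, 90.6, 345 and 581. MUC5B had 30.6, 1.83, 1.62, 6.38 and 34.7. FCGBP had 312, 245, 102, 128 and 507. MUC13 had 791, 605, 466, 450 and 599. MUC16 had 52.8, 20.1, 1.62, 17.6 and 32.4. MUC1 and MUC20 did not show the pattern.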

How the results depend on the processing

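No paired analysis was possible because replicate numbers here follow the order of deposition and 3 diets had 1 library. Genes called in methionine-free against normal food numbered 23 with edgeR and 1 with DESeq2. In the combined omission against methionine-free there were 3, with 0 under DESeq2, 6 under total-count scaling and 0 under the length correction. Leaving out 1 methionine-free library leaves no residual degrees of freedom, so the size rule took the place of the test and counts are not comparable: 299 to 1364, 387 to 1501 and, for tryptophan/niacin-free against methionine-free (0 with edgeR), 285 to 1083. At 1.5-fold in place of 2-fold the size rule marked 878 genes in place of 352 (tryptophan/niacin-free against normal), 527 in place of 202 (combined omission against normal), 818 in place of 404 (combined omission against tryptophan/niacin-free) and 1562 in place of 660 (methionine-free pair). The membrane median in tryptophan/niacin-free against methionine-free, -0.24, ran from -0.30 to -0.050 with 1 library left out. No called difference of a member changed sign under the alternatives run. Signs of uncalled ones did: tryptophan/niacin-free against methionine-free was -0.29 for MUC2 and -0.17 for MUC16 without library 2, and 0.32 for FCGBP without library 1. Total-count scaling moved the median of all genes by -0.11 between the methionine-free libraries. Depth limits MUC1, MUC5B and MUC16 most, since each had at most 2 counts in methionine-free library 2.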
